A study of Mus musculus with 22 samples.

Results

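Immunoglobulin variable gene segments were examined in lung RNA of mice that had breathed benzene. The segments were taken by symbol, as the heavy chain (Ighv), kappa light chain (Igkv) and lambda light chain (Iglv) variable genes of the lung table. This gave 52 of its 15971 genes, 13 heavy, 37 kappa and 2 lambda. All 12 lung libraries were poly-A RNA from male mice of the C57BL/6J background, 14 weeks old and fed normal chow. The 6 benzene libraries came from mice given 50 ppm benzene by inhalation over 6 weeks, 6 hours daily and 5 days weekly, and the 6 air libraries from mice kept in air cleaned by carbon and HEPA filters. Liver libraries of the same study list 0 of these segments and were not compared. The labels give the lungs numbers without tying a number to an animal, so p-values may reflect technical spread alone.

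An antibody consists of paired heavy and light chains, and each chain has a variable part that binds antigen and a constant part that sets its class. In a developing B cell a variable segment is joined to a short joining segment, with a diversity segment between them in the heavy chain, and the joined exon is spliced to a constant gene. Each B cell clone therefore carries a single heavy and usually a single light variable segment, and plasma cells, which secrete antibody, hold far more of this RNA than resting B cells. Lung holds circulating and resident B cells and the plasma cells of its mucosa.

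All 52 segments were found by identifier in GENCODE M21 (GRCm38), which annotates 218 immunoglobulin variable genes. The listed heavy segments lie within chr12:113859149-115912776, the kappa segments within chr6:67609713-70699067 and the lambda segments within chr16:19085017-19260859. Their transcripts are 287 to 415 bases long and have a leader exon and a second exon with most of the variable domain. The last 300 bases of the second exon are printed here, from the GENCODE M21 transcripts, for the segments on which the results turn most, so that the segments that differ between the groups can be read against each other. Igkv4-57 (ENSMUSG00000076556, chr6:69575975-69576274, minus strand) and Igkv3-2 (ENSMUSG00000095351, chr6:70698768-70699067, plus strand) had the largest declines. Igkv4-72 (ENSMUSG00000076545, chr6:69226854-69227153, minus strand) declined less, and Igkv4-91 (ENSMUSG00000076532, chr6:68768555-68768854, minus strand) was the one segment whose benzene libraries all lay above the air libraries. Ighv1-53 (ENSMUSG00000093894, chr12:115158403-115158702, minus strand) was the heavy segment past the threshold over all libraries. Each is given from 5′ to 3′ on its own strand, and capitals mark the bases from the last in-frame cysteine codon to the end. That codon belongs to the framework, and the germline start of the third complementarity-determining region comes after it.
Igkv4-57: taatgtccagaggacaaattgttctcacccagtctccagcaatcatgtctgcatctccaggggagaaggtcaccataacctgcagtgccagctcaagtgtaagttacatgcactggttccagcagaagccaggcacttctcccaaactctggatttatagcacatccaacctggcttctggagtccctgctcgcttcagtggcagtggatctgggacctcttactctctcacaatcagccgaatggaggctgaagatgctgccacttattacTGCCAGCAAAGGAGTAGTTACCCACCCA
Igkv3-2: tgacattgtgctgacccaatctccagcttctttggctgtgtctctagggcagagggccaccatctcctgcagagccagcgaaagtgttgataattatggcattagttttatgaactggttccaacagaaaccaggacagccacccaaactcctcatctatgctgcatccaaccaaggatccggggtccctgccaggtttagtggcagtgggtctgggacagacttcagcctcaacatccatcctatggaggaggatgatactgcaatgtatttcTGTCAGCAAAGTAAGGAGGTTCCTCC
Igkv4-72: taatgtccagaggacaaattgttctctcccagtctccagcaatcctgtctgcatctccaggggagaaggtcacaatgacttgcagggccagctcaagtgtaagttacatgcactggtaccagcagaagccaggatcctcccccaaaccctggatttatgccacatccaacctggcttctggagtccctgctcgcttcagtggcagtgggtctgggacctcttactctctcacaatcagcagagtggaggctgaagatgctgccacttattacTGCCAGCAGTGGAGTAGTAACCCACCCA
Igkv4-91: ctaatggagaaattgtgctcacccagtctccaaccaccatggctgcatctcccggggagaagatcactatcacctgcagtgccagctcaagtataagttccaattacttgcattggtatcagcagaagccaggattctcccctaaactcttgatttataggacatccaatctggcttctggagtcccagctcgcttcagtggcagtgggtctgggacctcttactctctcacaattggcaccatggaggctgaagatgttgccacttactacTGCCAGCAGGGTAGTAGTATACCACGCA
Ighv1-53: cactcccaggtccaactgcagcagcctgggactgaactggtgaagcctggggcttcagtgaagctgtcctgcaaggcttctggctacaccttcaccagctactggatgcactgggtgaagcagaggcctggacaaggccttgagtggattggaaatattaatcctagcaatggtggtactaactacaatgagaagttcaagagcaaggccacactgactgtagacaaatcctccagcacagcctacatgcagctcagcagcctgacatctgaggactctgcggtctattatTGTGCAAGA

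Over their whole second exons, Igkv4-57 and Igkv4-91, of the same family and with changes of opposite sign, differ at 47 of 309 aligned bases (84.8% identity). Igkv4-57 and Igkv4-72, which changed in the same direction by different amounts, differ at 20 of 303 (93.4% identity). Over all members, the coding sequence of the nearest other annotated segment of the same chain was 73.1 to 99.1% identical (median 95.1%). Of the 52, 26 had a neighbour of at least 95% identity. Reads from such pairs could be split between them, and somatic mutation can move a read to a sister segment, so the level of a single segment is uncertain by an amount these files do not show.

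Values are the reads of a gene over 1 factor per library, headed CPM by the authors and called normalized CPM here. A library held 8.4 to 10.02 M (mega) recovered reads in benzene and 8.3 to 11.92 M in air, of which 694 to 892 fell in variable segments in benzene lungs, and 84 to 2365 in air lungs. The 13615 variable reads of all 12 libraries spread thinly, and 30 of 52 segments averaged under 2 normalized CPM. One library stood apart. Air replicate 5 had 84 variable reads, 40 of 52 segments without a read and 894 genes of the table without a read, against 17 to 61 such genes in the other 5 air lungs and 13 to 28 in benzene lungs. Its scaling gave each read 0.15 normalized CPM, against 0.0938 to 0.118 in benzene lungs and 0.0829 to 0.122 in the other air lungs. A count of 0 in it allows up to 3 reads, or 0.45 normalized CPM, a floor that covers counting error only. Results follow with and without this library.

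RNA of the listed variable segments was lower in benzene lungs than in 5 of the 6 air lungs, and more so for heavy than for light chain segments. The summed level of the 52 segments was 79.9 at the lowest, 84.3 at the median and 97.6 at the highest normalized CPM in the 6 benzene lungs, against 137, 167 and 198 in 5 of the air lungs and 12.6 in air replicate 5. The benzene lungs thus lay below those 5 air lungs without overlap and above air replicate 5. Means were 86.3 ± 6.74 in benzene (SD, n = 6) and 172 ± 25.4 in air without replicate 5 (SD, n = 5), or 145 ± 69.0 with it (n = 6), a log2 ratio of -1.0 without and -0.75 with that library. A sum over members chosen with earlier results known carries no test here, and in whole lung RNA fewer B lineage cells and less RNA per cell cannot be told apart.

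**Figure D1:**
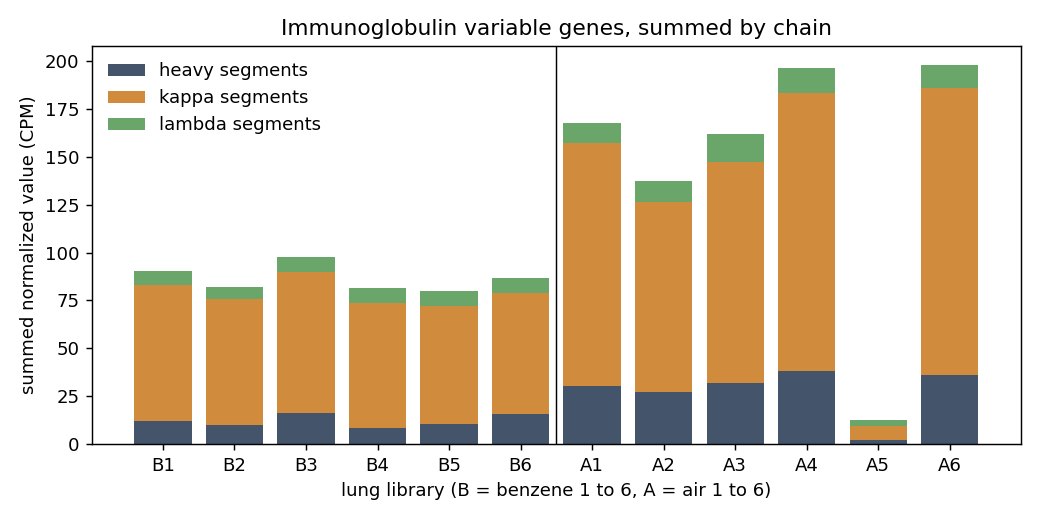
Summed normalized CPM (vertical axis) of heavy, kappa and lambda variable segments, stacked, in each lung library (horizontal axis, 6 benzene libraries B1 to B6 on the left and 6 air libraries A1 to A6 on the right). The benzene libraries reach 79.9 to 97.6, 5 air libraries 137 to 198, and A5 reaches 12.6.

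Heavy chain segments summed to 12.3 ± 3.13 normalized CPM in benzene lungs, against 32.9 ± 4.46 in air lungs without replicate 5 and 2.40 in that library. Their log2 ratio was -1.42 without and -1.18 with replicate 5. Kappa segments, which form most light chains in mice, summed to 66.6 ± 4.73 in benzene and 127 ± 20.9 in air without replicate 5, where that library had 6.90 (log2 ratio -0.93 without and -0.69 with it). Lambda segments summed to 7.45 ± 0.733 in benzene and 12.2 ± 1.71 in air without replicate 5, which had 3.30 (log2 ratio -0.71 without and -0.52 with it).

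Listed were 13 of 113 annotated heavy segments and 37 of 100 annotated kappa segments, so reads in unlisted segments are not counted. Among reads of the listed segments, the heavy chain share was lower in 5 of the 6 benzene lungs than in every air lung. This share was 10.6% at the lowest, 13.3% at the median and 18.4% at the highest in benzene lungs. Over all 6 air lungs these were 18.3%, 19.3% and 19.8%. The air lungs lay close together, air replicate 5 included (19%, 95% Wilson interval 12.1 to 28.7%), and only benzene replicate 6 reached their range. Intervals of single libraries can overlap between the groups, as for benzene replicate 3 (14.3 to 19.2%) and air replicate 1 (16.3 to 20.4%). Per base of transcript the picture was alike, with 10.3 to 18.3% in benzene lungs and 17.9 to 20.3% in air lungs. The kappa share was 72.6 to 80.0% in benzene, 71.2 to 75.7% in air without replicate 5 and 54.8% in that library (Wilson interval 44.1 to 65.0%). The lambda share was 7.49 to 9.86% in benzene and 6.04 to 9.0% in air without replicate 5, groups that overlap, and 26.2% in that library (18 to 36.5%), where all 22 lambda reads were from Iglv1.

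The mix of segments also differed. Of all 52 segments, the kappa segment Igkv3-2 was the most abundant per kilobase of transcript in the 5 air lungs, at 33.1 to 71.9 normalized CPM per kb. In benzene lungs the most abundant per kilobase was Igkv1-110 in replicates 1 to 4, Iglv1 in replicate 5 and Igkv4-91 in replicate 6, at 16.6 to 25.1 per kb. Iglv1 led in air replicate 5, at 8.44 per kb. The effective number of kappa segments, the inverse of the summed squared shares and so higher where reads are spread more evenly, was 19.5 to 22.7 in benzene lungs and 15.6 to 21.8 in air lungs without replicate 5, ranges that overlap. That of heavy segments was 8.11 to 10.7 in benzene and 8.20 to 10.8 in air without replicate 5. Air replicate 5, with its few reads, had 7.01 for kappa and 2.00 for heavy segments.

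The profile of the segments was alike within each group and differed between the groups. Across the 52 segments on the log2(value + 1) scale, Pearson's r was 0.672 to 0.888 among the 15 pairs of benzene lungs (median 0.799), and 0.704 to 0.882 among the 10 pairs of air lungs without replicate 5 (median 0.777). Between a benzene and an air lung it was 0.0804 to 0.281 over 30 pairs (median 0.186). Air replicate 5 reached 0.274 to 0.453 with benzene lungs and 0.412 to 0.486 with the other air lungs. These are descriptions across segments, which are not independent and share a library's depth, its scaling and reads between near-identical sequences. Spearman's rho gave 0.548 to 0.833 within benzene, 0.498 to 0.771 within air and 0.0217 to 0.339 between them.

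Single segments were tested by limma on log2(value + 1), with Benjamini-Hochberg adjusted p under 0.05 over all genes of the lung table with a value of at least 1 in 6 libraries. Of the 52 segments 41 were tested, 5 were lower in benzene lungs and 0 were higher, where 2.29% of all 15706 genes were called lower and 3.38% higher. At an unadjusted p under 0.05, 12 segments were lower, where 1596 of all 15706 genes were. Another 5 segments were higher, a count whose share over all genes was not computed. With no filter 6 of 52 were lower (background 2.25%) and 0 higher (3.33%), the added one being Igkv8-28. Leaving out air replicate 5 raised the counts. With the filter, 15 of 41 were then lower and 3 higher (background 6.95% and 7.63%), and with no filter 22 of 52 were lower and 3 higher, where 6.98% of all genes were lower and 7.53% higher. Changes and adjusted p of single segments without air replicate 5 are given from this unfiltered fit unless stated. The median change of the 52 segments was then -0.54 on the log2 scale and that of all genes 0.00. Over all libraries 10 segments were lower and 0 higher by edgeR (background 2.44% and 3.11%), and 12 were lower and 2 higher by DESeq2 (background 5.13% and 5.5%). With array weights, which give a library of larger spread less weight, 17 were lower and 3 higher (background 9.79% and 10.7%).

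Of the 22 lower segments, 7 were heavy, 14 kappa and 1 lambda, and the 3 higher ones were all kappa. The ranges of the groups were also compared without a model. With all libraries 0 of 52 segments had every benzene lung below every air lung and 1, Igkv4-91, had every one above (2.44% and 3.64% of all genes). Without air replicate 5, 18 lay below and 1 above, where 4.11% and 5.02% of all genes did. Of those 18, 6 were heavy, 11 kappa and 1 lambda. As shares of a library's variable reads, which sum to a fixed total, 8 segments lay below and 10 above without that library. With a fixed total, a fall in some segments raises the shares of others. These 2 counts have no share over all genes beside them, so they are a description only.

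**Figure D2:**
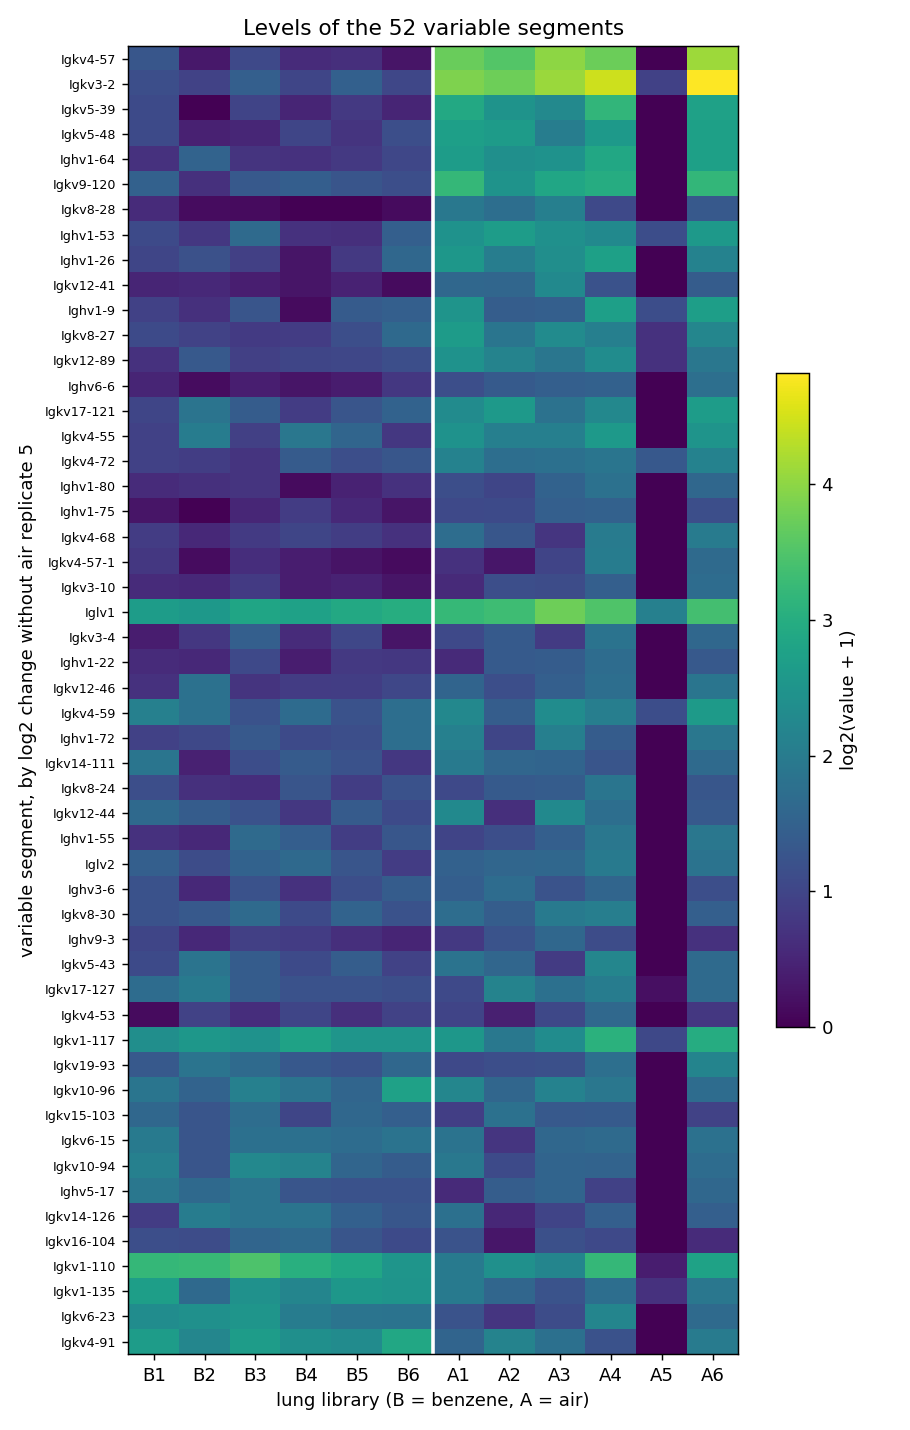
Level of each of the 52 variable segments (rows, ordered by log2 change without air replicate 5, lowest first) in each lung library (columns, benzene B1 to B6 on the left, air A1 to A6 on the right), as log2(value + 1). The top rows, from Igkv4-57 and Igkv3-2 down, are dark in benzene and bright in 5 air libraries, the bottom rows such as Igkv4-91 are brighter in benzene, and A5 has 40 rows without a read.

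Igkv3-2, the kappa segment listed nearest to the constant gene Igkc, had 1.23, 0.943, 1.75, 1.01, 1.78 and 1.02 normalized CPM in benzene replicates 1 to 6. In air replicates 1, 2, 3, 4 and 6 it had 13.8, 12.5, 16.1, 20.7 and 27.2, and in air replicate 5 it had 0.90. All benzene lungs lay far below these 5 air lungs and just above air replicate 5. The change was -2.47 ± 0.498 on the log2 scale (SE, adjusted p = 0.00787), and -3.02 ± 0.183 without air replicate 5 (adjusted p = 1.23e-10). It was the one segment of the 5 that stayed called with each of the 12 libraries left out in turn with the filter kept (adjusted p 1.32e-10 to 0.0261). Its mean without air replicate 5 was 14.0-fold lower in benzene lungs, and its share of variable reads was 1.15 to 2.23% in benzene and 8.22 to 13.7% in those 5 air lungs.

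Igkv4-57 showed a like pattern. It had 1.43, 0.236, 1.09, 0.506, 0.563 and 0.205 normalized CPM in benzene replicates 1 to 6, against 12.2, 10.5, 15.0, 12.4 and 16.4 in air replicates 1, 2, 3, 4 and 6 and no read in air replicate 5. The benzene lungs were all below the 5 air lungs with reads. The change was -2.49 ± 0.572 (adjusted p = 0.0186), lost on leaving out benzene replicate 6 (adjusted p = 0.0552) or using a pseudocount of 0.1 (adjusted p = 0.11), and -3.13 ± 0.192 without air replicate 5 (adjusted p = 1.42e-10). In that comparison its mean was 19.7-fold lower in benzene lungs. These are 39 reads over 6 benzene lungs and 656 over 5 air lungs.

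Igkv5-39 had 0 to 1.12 normalized CPM in benzene lungs (median 0.58), against 3.79 to 8.04 in the 5 air lungs (median 5.76) and no read in air replicate 5. Its change of -1.62 ± 0.438 (adjusted p = 0.0456) missed the threshold when benzene replicate 2, 3, 4, 5 or 6 was left out (up to 0.102) and with a pseudocount of 0.1 (0.188), and was -2.07 ± 0.213 without air replicate 5 (adjusted p = 4.89e-07). In 6 of the 12 leave-outs Igkv5-39 did not pass the filter. It reached a value of 1 only in the 5 air lungs and benzene replicate 1, so it passed mainly through the group where it is high. With no filter its adjusted p was 0.0457. Igkv4-72 had 0.657 to 1.62 in benzene and 2.35 to 3.41 in the 5 air lungs, with 1.5 in air replicate 5, so the benzene lungs overlap only that library. Its change was -0.77 ± 0.181 (adjusted p = 0.0215), lost without benzene replicate 1, 2 or 3 or air replicate 1 (up to 0.0663), and -0.87 ± 0.175 without air replicate 5 (adjusted p = 0.00183).

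The heavy segments of highest mean were Ighv1-53, Ighv1-64 and Ighv1-26, all of the large Ighv1 family. Ighv1-53 had 1.12, 0.707, 2.19, 0.608, 0.563 and 1.74 normalized CPM in benzene replicates 1 to 6, against 4.5, 5.36, 4.37, 3.90 and 5.04 in air replicates 1, 2, 3, 4 and 6 and 1.20 in air replicate 5. Its change was -1.21 ± 0.272 (adjusted p = 0.016), lost without benzene replicate 5 (0.0509), and -1.44 ± 0.197 without air replicate 5 (adjusted p = 2.84e-05). Ighv1-64 had 0.608 to 1.89 in benzene and 4.25 to 6.38 in the 5 air lungs, and Ighv1-26 had 0.203 to 2.05 in benzene and 3.13 to 5.64 in those air lungs. Both had no read in air replicate 5. Neither passed over all libraries (adjusted p = 0.0845 for Ighv1-64 and 0.158 for Ighv1-26), and both were lower without that library, with changes of -1.72 ± 0.182 (7.71e-07) for Ighv1-64 and -1.40 ± 0.212 (9.68e-05) for Ighv1-26.

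Lambda segments are few in mice, and both listed ones had reads in every benzene lung. Iglv1 had 4.95, 5.95 and 6.95 normalized CPM at the lowest, median and highest in benzene lungs, against 8.40 to 12.5 in the 5 air lungs and 3.30 in air replicate 5. Its change did not pass over all libraries (-0.43 ± 0.225, adjusted p = 0.28) and was -0.65 ± 0.131 without air replicate 5 (adjusted p = 0.00185). Iglv2 had 0.818 to 2.13 in benzene and 1.83 to 2.90 in the 5 air lungs, ranges that overlap, and did not pass with air replicate 5 (adjusted p = 0.849) or without it (adjusted p = 0.156).

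Some kappa segments ran the other way. Igkv1-110 had 8.27, 8.49, 10.1, 7.19, 6.19 and 4.70 normalized CPM in benzene replicates 1 to 6, against 2.92, 4.36, 3.59, 8.21 and 5.87 in air replicates 1, 2, 3, 4 and 6 and 0.30 in air replicate 5. The groups overlap through air replicates 4 and 6, and its change of 0.89 ± 0.37 did not pass (adjusted p = 0.176, or 0.0833 without air replicate 5). Its share of variable reads was 5.42 to 10.4% in benzene and 1.75 to 4.19% in the 5 air lungs, without overlap. Igkv4-91, Igkv6-23 and Igkv1-135 are described after their values were seen, because they are the 3 segments called higher without air replicate 5.

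Igkv4-91 had 5.31, 3.65, 5.36, 4.25, 4.03 and 6.44 normalized CPM in benzene replicates 1 to 6, against 1.95, 3.46, 2.43, 1.3 and 2.99 in air replicates 1, 2, 3, 4 and 6 and no read in air replicate 5. The lowest benzene lung lay just above the highest air lung. Its change was 1.08 ± 0.305 over all libraries (adjusted p = 0.0549) and 0.79 ± 0.182 without air replicate 5 (adjusted p = 0.00577, and 0.00379 to 0.0202 with the filter as each other library was left out as well). Igkv6-23 had 2.56 to 4.71 in benzene and 0.67 to 3.57 in the 5 air lungs, and Igkv1-135 had 2.12 to 5.51 in benzene and 1.36 to 2.92 in those air lungs. Without air replicate 5 their changes were 0.78 ± 0.225 (adjusted p = 0.0246) for Igkv6-23 and 0.64 ± 0.194 (adjusted p = 0.0305) for Igkv1-135. These calls are less firm. That of Igkv6-23 was lost in 5 of 11 further leave-outs and by edgeR, and that of Igkv1-135 in 6 of 11.

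By family, the declines took in most of Ighv1 and were uneven in kappa. Of 9 Ighv1 segments, 6 were lower without air replicate 5, in a fit where 6.98% of all genes were lower and 7.53% higher. The family summed to 5.57 to 11.9 normalized CPM in benzene and 20.3 to 32.4 in the 5 air lungs. Its share of heavy reads was 53.8 to 74.4% in benzene and 74.9 to 86.5% in those air lungs, next to each other without overlap, and all 16 heavy reads of air replicate 5 were Ighv1. Of 8 Igkv4 segments 4 were lower and 1 higher, and the family held 15.2 to 21.0% of kappa reads in benzene and 22.5 to 25.9% in the 5 air lungs. The Igkv3 family, 3 segments of which 2 were lower, summed to 1.43 to 4.27 in benzene and 15.3 to 31.5 in the 5 air lungs. The Igkv5 family, 3 segments of which 2 were lower, summed to 2.53 to 3.37 in benzene and 7.67 to 16.7 in those air lungs. Igkv8, with 2 of 4 segments lower, summed to 3.18 to 4.91 in benzene and 8.27 to 11.7 in those air lungs. Igkv12, also with 2 of 4 lower, summed to 2.73 to 6.13 and 7.26 to 12.4. By contrast the Igkv1 family, 3 segments with 1 higher and none lower, summed to 14.0 to 18.9 in benzene and 9.03 to 18 in the 5 air lungs, and the Igkv10 family, 2 segments with none called, to 3.30 to 7.36 in benzene and 3.13 to 6.45 in those air lungs.

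The kappa segments were also set out along their locus, an order chosen after the values were seen. Of the 18 listed segments nearest to Igkc, 27.4 to 1150 kb away, 9 were lower and 1 higher without air replicate 5, with a median change of -0.64. Of the 18 farthest, 1288 to 3116 kb away, 5 were lower and 2 higher, with a median change of -0.01. In this fit 6.98% of all genes were lower and 7.53% higher. The difference between these groups of segments was not tested, and neighbours often belong to 1 family.

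**Figure D3:**
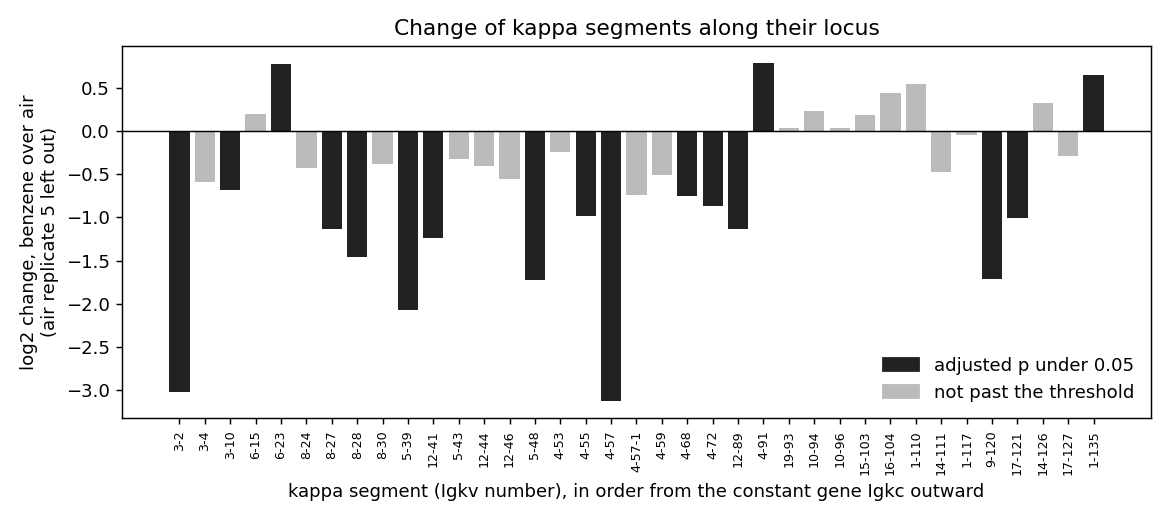
Log2 change, benzene over air without air replicate 5 (vertical axis), of the 37 kappa segments in their order from the constant gene Igkc outward (horizontal axis, evenly spaced); dark bars have an adjusted p under 0.05. Igkv3-2 at the left end (-3.02) and Igkv4-57 near the middle (-3.13) are the lowest bars, and Igkv6-23, Igkv4-91 and Igkv1-135 are the 3 dark bars above 0.

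The constant genes, which every rearranged chain uses whatever its variable segment, were lower as well. Of 12 tested constant and joining chain genes, 8 were lower and 1 higher over all libraries (background 2.29% and 3.38%), and 9 lower and 1 higher without air replicate 5. Their median change was -1.16 over all libraries, where that of all genes was 0.01. Ighm, the IgM heavy chain, had 186 to 205 normalized CPM in benzene lungs, against 484 to 537 in the 5 air lungs and 351 in air replicate 5. Igkc, the kappa constant gene, had 173 to 281 in benzene, against 420 to 751 in the 5 air lungs and 432 in air replicate 5. Jchain, which joins IgM and IgA subunits, had 39.1 to 56.4 in benzene, against 77.3 to 93.0 in the 5 air lungs and 174 in air replicate 5.

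The heavy chain classes differed in the size and direction of their changes. Ighg2c, of the IgG2c class, had 0.589 to 1.94 normalized CPM in benzene and 15.0 to 21.1 in the 5 air lungs, a change of -3.03 ± 0.216 over all libraries. Ighg2b changed by -1.78 ± 0.183, Ighg1 by -1.20 ± 0.184 and the lambda constant gene Iglc3 by -1.20 ± 0.197, all past the threshold, and Igha, of the mucosal class IgA, by -0.52 ± 0.107 (adjusted p = 0.00968). Ighg3 was the one higher gene, with 7.51 to 12.3 in benzene, against 2.78 to 4.25 in the 5 air lungs and 5.70 in air replicate 5. Ighd, the IgD heavy chain of resting B cells, had 33.0 ± 3.44 in benzene and 33.3 ± 5.98 in air (SD, n = 6 each, adjusted p = 0.994).

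The variable and the constant sums were both lower in benzene lungs, and their ratio differed less than either. The 11 constant genes without Jchain summed to 584 ± 64.1 normalized CPM in benzene lungs and 1368 ± 199 in air lungs without replicate 5, a log2 ratio of -1.23. The ratio of the summed variable to the summed constant level was 0.126 to 0.186 in benzene and 0.0896 to 0.174 in the 5 air lungs, ranges that overlap. For heavy chains alone it was 0.0236 to 0.0491 in benzene and 0.0353 to 0.0563 in those air lungs, which overlap too. Within kappa, the variable sum over Igkc was 0.224 to 0.414 in benzene lungs, against 0.138 to 0.182 in air replicates 1, 2 and 3 and 0.345 to 0.356 in air replicates 4 and 6, whose Igkc level was lower than in the other 3. Air replicate 5 is unlike all of them, with a constant sum of 1070 and a variable to constant ratio of 0.0118.

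**Figure D4:**
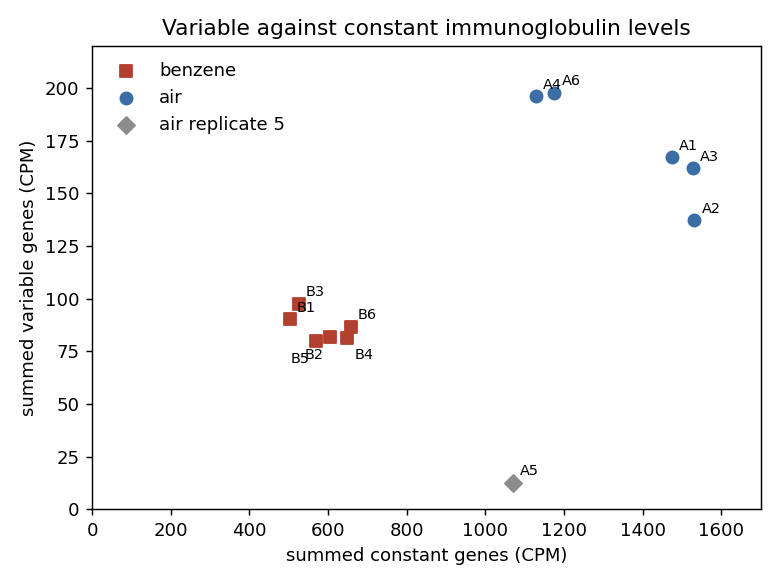
Summed level of the 52 variable segments (vertical axis, normalized CPM) against that of 11 constant genes (horizontal axis, normalized CPM), 1 point per lung library, benzene as squares, air as circles and air replicate 5 as a diamond. Benzene libraries lie at 502 to 658 constant and 79.9 to 97.6 variable, 5 air libraries at 1129 to 1531 and 137 to 198, and A5 at 1070 and 12.6.

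Lists of B cell, plasma cell, segment joining and follicle genes were tested in the same fits, with the filter. In these fits 2.29% of all genes were lower and 3.38% higher over all libraries. Without air replicate 5 the shares were 6.95% lower and 7.63% higher. The counts of these short lists are given against those shares as a description. Of 29 B cell genes tested, 1 was lower over all libraries (Cd79a, a signalling chain of the B cell receptor, 42.1 ± 3.43 in benzene and 57.8 ± 11.6 in air, adjusted p = 0.0414, lost in 8 of 12 leave-outs) and 0 were higher. Without air replicate 5, 3 were lower (Cd79a, Fcmr and Cd37) and 0 higher, and the median change of the list was -0.12 without it and -0.13 with it. Ms4a1, which encodes CD20, had 10.2 to 14.5 normalized CPM in benzene and 11.6 to 13.4 in the 5 air lungs (adjusted p = 0.849 over all libraries). The summed B cell list was 398 to 433 in benzene, 436 to 481 in the 5 air lungs and 536 in air replicate 5. The plasma cell list includes endoplasmic reticulum genes and Cd38, which were not shown here to be confined to plasma cells. It summed to 1761 to 1901 in benzene, 1933 to 2151 in the 5 air lungs and 2578 in air replicate 5. Its counts are therefore not a measure of plasma cells. Of its 17 tested genes, 2 were lower over all libraries, the endoplasmic reticulum genes Creld2 (-0.57 ± 0.0819) and Pdia4 (-0.35 ± 0.0793), and 0 higher. Without air replicate 5, 2 were lower and 2 higher, the plasma cell regulator Prdm1 and Cd38. Mzb1, an antibody-folding partner, had 6.34 to 11.4 in benzene and 10.3 to 17.8 in the 5 air lungs (adjusted p = 0.139 over all libraries). Of 12 tested genes of segment joining and repair, 0 were called in either direction. Of 8 genes of follicles and germinal centres, 1 was lower, the B cell chemokine Cxcl13 (7.74 ± 1.22 in benzene and 11.7 ± 0.889 in air, adjusted p = 0.0126).

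Markers of other tissues moved with the groups too. Over all libraries 2.29% of all genes were lower and 3.38% higher, and without air replicate 5 the shares were 6.95% and 7.63%. Squamous epithelium genes, of which 12 of 13 tested were higher, summed to 3251 to 3627 normalized CPM in benzene lungs, against 311 to 357 in the 5 air lungs and 257 in air replicate 5. Skeletal muscle genes, of which 11 of 16 were lower and 2 higher, summed to 1483 to 1751 in benzene, against 2076 to 2285 in the 5 air lungs and 3829 in air replicate 5. Dsg3 of the squamous list was at 0 in at least 1 air lung. Of 20 T cell genes 0 were called over all libraries and 2 were lower without air replicate 5 (Zap70 and Cd3e). Of 12 lung identity genes, among them surfactant genes, 0 were called either way, and they summed to 75274 to 104239 in benzene, against 90462 to 109418 in the 5 air lungs and 194087 in air replicate 5, so the labelled tissue was present in all 12 libraries. The part of these markers in the immunoglobulin differences was not tested.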

How the data were processed

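Poly-A RNA was sequenced as read pairs from 6 benzene and 6 air lungs, per the labels' protocols. The submitters' processing notes name fastp 0.20.0, STAR, edgeR 3.10 and the build GRCm38; of the read counter, gene annotation and low-count filter, the sources used here say nothing. The deposited lung values are a normalized signal, headed CPM by the authors. All of them (100%) are whole reads over 1 factor per library, within a tolerance of 0.01, and the reads were recovered by that factor (8.3 to 11.92 M, mega, per library). Raw counts had been allowed for in the plan, but with this unit the test planned for normalized values applied. The deposited fold change and p-value columns of the authors were not used, and the comparison planned in liver could not be run, because that table lists 0 of these segments.

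Genes reaching 1 in 6 or more of the 12 libraries were tested by limma-trend (version 3.58.1 in R 4.3.3) on log2(value + 1), two-sided, with Benjamini-Hochberg adjustment over the whole lung table; this scale understates changes of low genes. The fit was tested on simulated data. edgeR 4.0.16, DESeq2 1.42.0, TMM scaling, a pseudocount of 0.1, other filters, array weights, a replicate block and each library left out were alternatives; combinations with air replicate 5 left out were added after the data were seen. Shares are of reads in listed segments, with 95% Wilson intervals; reads carry no molecular identifiers, so intervals and the floor of 3 reads cover counting error only. Sequences and coordinates come from GENCODE M21. Over all genes, pairs of lungs differed by more than counting noise. Chi-square per degree of freedom was 2.14 to 17.5 within benzene and 4.07 to 12.8 within air without replicate 5. Between benzene lungs and those air lungs it was 13.5 to 26.7, a range that some benzene pairs reached. The closest benzene pairs were replicates 1 with 3 (2.14), 2 with 4 (2.99) and 5 with 6 (3.63). The reason for this pairing was not tested. Over the 52 segments chi-square per degree of freedom was 1.07 to 3.13 within benzene, 2.12 to 4.26 within air and 7.82 to 11.1 between them. No pair was therefore counted as 1 library read again, but separate preparations of 1 RNA could differ as much and are not excluded.

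Values by library are given for up to 8 called segments per chain by size of change, the 3 of highest mean per chain and up to 6 whose top library stands highest over the others, and for called genes of the constant and B lineage lists with Ighm, Igkc, Jchain, Cd79a, Ms4a1 and Mzb1. Other genes named were picked after their values were seen. Members and lists were chosen with earlier results of these data known.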

Additional observations from a re-analysis of the deposited data

Results flagged for a closer look

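Values were checked for a single library standing apart from the other 5 of its group (gap over range above Dixon's critical value for 6 samples) in 58 groups, of which chance flags about 1 in 20. This gave 17, and 15 of them were air replicate 5. In that library the variable sum was 12.6 normalized CPM, the heavy sum 2.40 and the kappa sum 6.90, far below the other air lungs. The kappa share there was 54.8%, the lambda share 26.2% and the effective number of heavy segments 2.00. Ighv1-53 was low in it at 1.20, Ighv1-64, Igkv4-57 and Iglv2 had 0 reads, and Ighm was low at 351. Other B lineage genes were high in the same library, with 174 for Jchain, 79.9 for Cd79a, 19.6 for Ms4a1 and 33.0 for Mzb1. Lists of other tissues were high there too, at 194087 for lung identity genes and 3829 for skeletal muscle genes. All its values summed to 1325414, against 971364 to 1010487 in the other air lungs. Among benzene lungs, Ighv1-64 was high in replicate 2 at 1.89, and Jchain was high in replicate 4 at 56.4.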

How the results depend on the processing

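The 5 lower segments over all libraries became 3 with a replicate block, 3 with a pseudocount of 0.1, 10 by edgeR, 12 by DESeq2, 17 with array weights and 3 to 15 as each library was left out, the 15 being without air replicate 5. Of all 15706 genes, 360 were lower in the main fit, 143 with the block and 347 with that pseudocount. By edgeR, DESeq2 and array weights 2.44%, 5.13% and 9.79% were lower. The leave-outs ran from 205 of 15600 genes lower (without benzene replicate 1) to 1089 of 15659 (without air replicate 5). The 0 higher segments became 2 by DESeq2, 3 with array weights and 0 to 3 in the leave-outs. Over all genes 5.5% were higher by DESeq2 and 10.7% with array weights. In the leave-outs 297 of 15600 (without benzene replicate 1) to 1195 of 15659 (without air replicate 5) were higher. Without air replicate 5, the 15 lower segments were 14 to 22 under the added alternatives, and the 3 higher were 1 to 4, with 1 without benzene replicate 1 or 3 or air replicate 2 or 3. Over all genes these alternatives called 751 of 15610 (without air replicate 2) to 1380 of 15546 (without benzene replicate 4) lower. They called 800 of 15525 (without benzene replicate 1) to 1451 of 15546 (without benzene replicate 4) higher. Of the 29 genes tested in the B cell list and 17 in the plasma cell list, 3 were lower over all libraries. These became 1 with the replicate block, 6 by DESeq2, 11 with array weights and 1 to 5 in the leave-outs. The 8 lower of 12 constant and joining chain genes stayed at 7 to 9. The counts over all genes given above for each setting apply to these lists too. The causes were not tested.

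Same-numbered lungs were not alike in their deviations from the group means (correlations -0.36 to 0.098). Air replicate 5 is part of the air mean, so these correlations cannot exclude pairing. The block took the calls over all genes to 414, against 891. Below the threshold over all libraries, Igkv4-72, Igkv5-39 and Cd79a were above it with the block (adjusted p = 0.0841, 0.0889 and 0.113), as was Pdia4. No result changed direction past the threshold. The log2 ratio of the summed variable level was -1.0 to -0.65 as each library was left out and -0.58 without the segment of highest mean in each chain class. Depth limits single segments, 30 of which average under 2 normalized CPM.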
